A study of Rattus norvegicus with 192 samples.

Results

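The lung was followed 6 and 24 h after adult male Sprague-Dawley rats had breathed phosphine (PH3), at 660 ppm for 25 min, in a whole-body chamber. The product of concentration and time was 16500 ppm × min, which the study's design gives as 0.71 of the LCt50, the median lethal product. The 2 comparisons set PH3 lungs against the lungs of air-exposed rats taken at the same time, with 4 arrays in each of the 4 groups. These 16 arrays were chosen by tissue, exposure and time out of the 32 lung arrays of a series with 6 tissues; the 1 h and 3 h lung arrays, 8 each, serve below as the early reference. Each array read 1 rat, and all rats, the controls included, were anaesthetised with ketamine and xylazine and bled before the tissue was frozen. The p-values therefore measure the spread between rats.

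Phosphine is a fumigant gas that enters through the lung and blocks cytochrome c oxidase, the last enzyme of the mitochondrial respiratory chain. The lung that meets the gas first is a sheet of flat type I and surfactant-making type II cells over capillaries, with club and ciliated cells lining its airways. Acute stress also reaches it through the blood as glucocorticoid hormone, whose receptor switches on genes such as *Fkbp5* and then, as hormone levels fall, releases them.

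The arrays carried lung RNA in every group. *Sftpc*, the surfactant protein of type II cells, lay between 13.51 and 13.70 on the log2 intensity scale over the 16 arrays, *Scgb1a1*, the secreted protein of club cells, between 13.26 and 13.50, and *Ager*, a type I marker, between 12.88 and 13.13. Every array correlated best with another lung array. Markers of skeletal muscle and brown fat, tissues that lie against the lung, differed widely between arrays of the same group. Their mean level over 7 genes ran from 5.91 to 9.25 in PH3 and from 4.69 to 9.14 in Air at 6 h, and from 4.52 to 8.87 in PH3 and from 4.18 to 11.11 in Air at 24 h. That of 13 cardiac muscle markers ran from 5.97 to 8.49 in PH3 and from 6.36 to 7.67 in Air at 6 h. The 24 h ranges were 6.07 to 8.67 and 5.77 to 8.71. All 7 and 11 of the 13 stood above Air at 6 h, with medians of 0.69 and 0.41. Of either list 0 had an unadjusted p under 0.05 at 6 h. The Air array of Rat340 at 24 h held the highest of these levels, and the values without it are given where they bear on a result below. The 3′ index, a sign of RNA integrity taken as how far the 3′ control probe sets of beta-actin and Gapdh exceed the 5′ ones, was 0.254 ± 0.146 (SD) in PH3 and 0.191 ± 0.0523 in Air at 6 h (n = 4 each, exact permutation test, two-sided, p = 0.60). At 24 h it was 0.157 ± 0.0438 and 0.139 ± 0.0448 (exact p = 0.571; the smallest p this design allows is 0.0286). The PH3 array of Rat381 at 6 h held the highest index of the 16, 0.462. The platform annotation gives 1 gene each to 19063 of the 31042 probe sets tested, and a gene is read below from the brightest of its probe sets, which makes 13438 genes.

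No probe set passed the test at either time. limma called 0 of 31042 at 6 h and 0 at 24 h at an adjusted p under 0.05, against 1317 in the lung at 1 h (4.24%) and 3071 at 3 h (9.89%) from groups of the same size. The 3 h groups also differed in the 3′ index, which ran from 0.0952 to 0.247 in PH3 and from 0.343 to 0.521 in Air. Its part in the 3 h values, here and below, was not tested. At an unadjusted p under 0.05 there were 1536 probe sets at 6 h, 4.95% of those tested, and 1906 at 24 h, 6.14%. The groups did not overlap at 897 probe sets at 6 h (2.89%) and 1184 at 24 h (3.81%). The probe sets that differed by more than 1 log2 unit numbered 223 at 1 h, 198 at 3 h, 40 at 6 h and 48 at 24 h. The median standard error of a difference was 0.114. Of the 13438 genes, 50.4% were above Air at 6 h and 52.1% at 24 h, and at an unadjusted p under 0.05 the shares above and below Air were 2.83% and 2.34% at 6 h and 3.63% and 2.6% at 24 h. The counts of list members below are read against these shares.

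The probe sets of the first response lay close to Air at 6 and 24 h. The 731 called higher at 1 h (2.35%) had a median difference of 0.60 then, −0.06 at 6 h and −0.06 at 24 h. The 586 called lower (1.89%) had −0.49 at 1 h, 0.06 at 6 h and 0.05 at 24 h. The difference between the 6 h and the 1 h effect was itself called in 48.8% of the first and 41.8% of the second set, and that between 24 h and 1 h in 48.7% and 37.0%, each towards 0; over all probe sets these differences were called in 2.17% and 2.15%. These probe sets were chosen by their 1 h values, so their distance from 1 h is a description. The 6 h and 24 h arrays entered that choice only through the spread that all lung arrays share.

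Of the 731 probe sets higher at 1 h, 36.0% were still above Air at 6 h and 30.9% at 24 h. Those that lay on the other side of Air at an unadjusted p under 0.05 numbered 67 at 6 h (9.17%, against 2.43% of all probe sets on that side) and 88 at 24 h (12.0%, against 2.55%). On the first side there were 19 and 6. Of the 586 lower at 1 h, 62 were above Air at 6 h (10.6%, against 2.52%) and 46 at 24 h (7.85%, against 3.59%), while 7 and 9 were still below. The counts are descriptions, since probe sets move together. With Air arrays of all 4 times as controls, which include the 1 h controls behind the choice, the 67 became 26 (3.56%, against 2.4% of all probe sets under that control) and the 88 became 53 (7.25%, against 5.15%), and the 6 h median of the 731 turned to 0.0089 with 52.4% above Air. Without the PH3 array of Rat381 the 62 became 32, without the Air array of Rat394 it became 40, and without the PH3 array of Rat333 the 88 became 54.

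**Figure D1:**
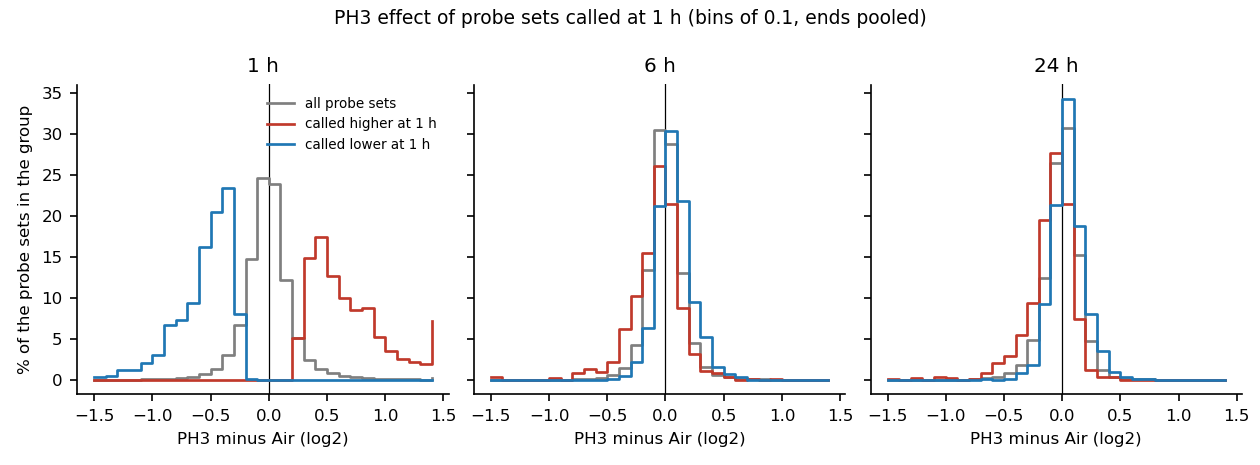
Share of probe sets (y axis, %) by PH3 minus Air difference (x axis, log2, bins of 0.1) at 1, 6 and 24 h, for the 731 called higher at 1 h, the 586 called lower and all 31042. At 6 and 24 h both sets lie around 0, the first slightly to the left of all probe sets and the second slightly to the right.

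*Fkbp5*, the immunophilin that binds the glucocorticoid receptor and is among its strongest targets, lay on the other side of Air at both times. It had risen by 2.38 at 1 h. At 6 h it read 6.72, 6.65, 7.46 and 6.96 on the PH3 arrays and 7.52, 7.77, 7.65 and 8.77 on the Air arrays. At 24 h it read 6.49, 7.17, 6.60 and 7.54 in PH3 and 8.13, 7.83, 7.75 and 8.27 in Air. All PH3 arrays lay below all Air arrays at both times. The difference was −0.98 ± 0.279 (SE; limma's adjusted p = 0.879, unadjusted 0.0016) at 6 h and −1.04 ± 0.279 (adjusted p = 0.653, unadjusted 0.00084) at 24 h, about 2.06-fold lower at the later time, and neither passed the test. A second, dimmer probe set of the gene gave −0.92 and −1.07. With Air arrays of all times as controls the difference was −0.57 at both times. What did pass was the change from 1 h, −3.35 at 6 h (adjusted p = 3.52e-05) and −3.42 at 24 h (adjusted p = 2.46e-05). Most genes whose change from 1 h is given, here and below, were named by values that enter it. The p-values of these changes are therefore descriptions.

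Other glucocorticoid targets had also left their 1 h level. *Map3k6*, a stress kinase, stood at −0.46 at 6 h and −0.44 at 24 h after 2.15 at 1 h, a called change of −2.61 and −2.58 (adjusted p = 6.68e-05 and 5.2e-05). *Mt2A*, a metallothionein that binds zinc and copper, stood at 0.25 and −0.24 after 2.59, and both changes from 1 h passed (adjusted p = 0.000669 and 7.99e-05). *Glul*, glutamine synthetase, read 10.12, 10.07, 9.95 and 10.15 in PH3 at 24 h and 10.43, 10.41, 10.39 and 10.40 in Air. These groups did not overlap, with a difference of −0.34 ± 0.0983 (adjusted p = 0.653), and the change from 1 h passed at both times (−0.80 and −1.01). The other probe sets of *Glul* gave −0.18 and −0.14 at 24 h, with groups that overlapped (limma's unadjusted p = 0.30 and 0.23). *Pdk4*, the kinase that turns cells from glucose to fat as fuel, stood at −0.93 ± 0.444 at 24 h (adjusted p = 0.811), with PH3 arrays at 6.61, 6.87, 6.58 and 8.49 against 7.14, 8.15, 9.19 and 7.77, and its change from 1 h passed at 24 h (−2.79, adjusted p = 0.0131) but not at 6 h (−2.13, adjusted p = 0.0723). Without the Air array of Rat340 the 24 h difference was −0.55, and without the PH3 array of Rat341 −1.38.

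Of the 23 glucocorticoid targets of the list, 21 had been above Air at 1 h with a median of 0.82. At 6 h 5 were above Air and 18 below, with a median of −0.15, and at 24 h 5 and 18 with a median of −0.22. The median over all 13438 genes was 0.0016 at 6 h and 0.0063 at 24 h. At an unadjusted p under 0.05, 1 member was lower at 6 h and 4 at 24 h (*Fkbp5*, *Glul*, *Pdk4* and *Cdkn1a*), and 0 were higher. The share of all genes lower at that threshold was 2.34% at 6 h and 2.6% at 24 h. The mean level of the 23 genes lay between 8.06 and 8.26 in the 6 h PH3 arrays and between 8.19 and 8.39 in Air, so the groups overlapped through 1 Air array. At 24 h it lay between 7.70 and 8.07 in PH3 and between 7.95 and 8.33 in Air. With Air arrays of all times as controls, 13 of the 23 were above Air at 6 h and the median was 0.014. The 24 h median was −0.12 without the Air array of Rat502 and −0.13 without the PH3 array of Rat333.

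Genes of the first response outside that list are given next. *Maff*, a small Maf transcription factor, stood at 0.17 at 6 h and 0.04 at 24 h after 1.97 at 1 h, and *Pfkfb3*, which makes the main activator of glycolysis, at −0.47 and −0.54 after 1.84; all 4 changes from 1 h passed (adjusted p from 5.2e-05 to 0.00319). *Nedd4l*, the ubiquitin ligase that withdraws the epithelial sodium channel from the cell surface, stood at −0.10 at 6 h. At 24 h it lay between 7.90 and 8.02 in PH3 and between 8.07 and 8.35 in Air, without overlap (−0.27 ± 0.0817, adjusted p = 0.653). *Rapgef5*, an exchange factor for the small GTPase Rap, lay between 8.90 and 9.14 in PH3 at 6 h and between 9.46 and 9.93 in Air (−0.64 ± 0.179, adjusted p = 0.857), after 1.37 above Air at 1 h. Its groups did not overlap at 6 h and did at 24 h. *Il1r2*, the decoy receptor of interleukin 1, had been higher by 1.63 at 1 h and 1.78 at 3 h and stood at −0.21 at 6 h and 0.44 at 24 h; its change from 1 h passed at 6 h (adjusted p = 0.00308).

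Of the genes lowered at 1 h, the chemokines *Ccl2* and *Ccl7*, which draw monocytes, stood at 0.43 and 0.34 at 6 h after −1.31 and −0.89. *Ccl7* read 5.40, 4.67, 4.87 and 5.34 in PH3 at 24 h against 4.22, 4.17, 4.57 and 4.42 in Air. All 4 PH3 arrays lay above all Air arrays, with a difference of 0.72 ± 0.217 (adjusted p = 0.653). The *Ccl7* probe set was dim, with a mean of 4.43 over the lung arrays, whose medians were 5.26 or higher. *Ahr*, the receptor of dioxin-like ligands, went from −1.23 at 1 h to 0.59 ± 0.204 at 6 h (adjusted p = 0.983) and 0.10 at 24 h. *Spns2*, the endothelial exporter of sphingosine 1-phosphate, went from −1.29 to −0.04 and 0.14. The changes from 1 h of these 4 genes passed at both times, with adjusted p between 0.000548 and 0.0248. *Gal*, the neuropeptide galanin, stood at 1.97 at 1 h, 1.54 at 3 h, 0.92 ± 0.253 at 6 h (adjusted p = 0.857) and 0.33 at 24 h. Its change from 1 h did not pass at 6 h (adjusted p = 0.152) and passed at 24 h (adjusted p = 0.0105), and with Air arrays of all times as controls its 6 h difference was called (1.38, adjusted p = 0.0158).

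**Figure D2:**
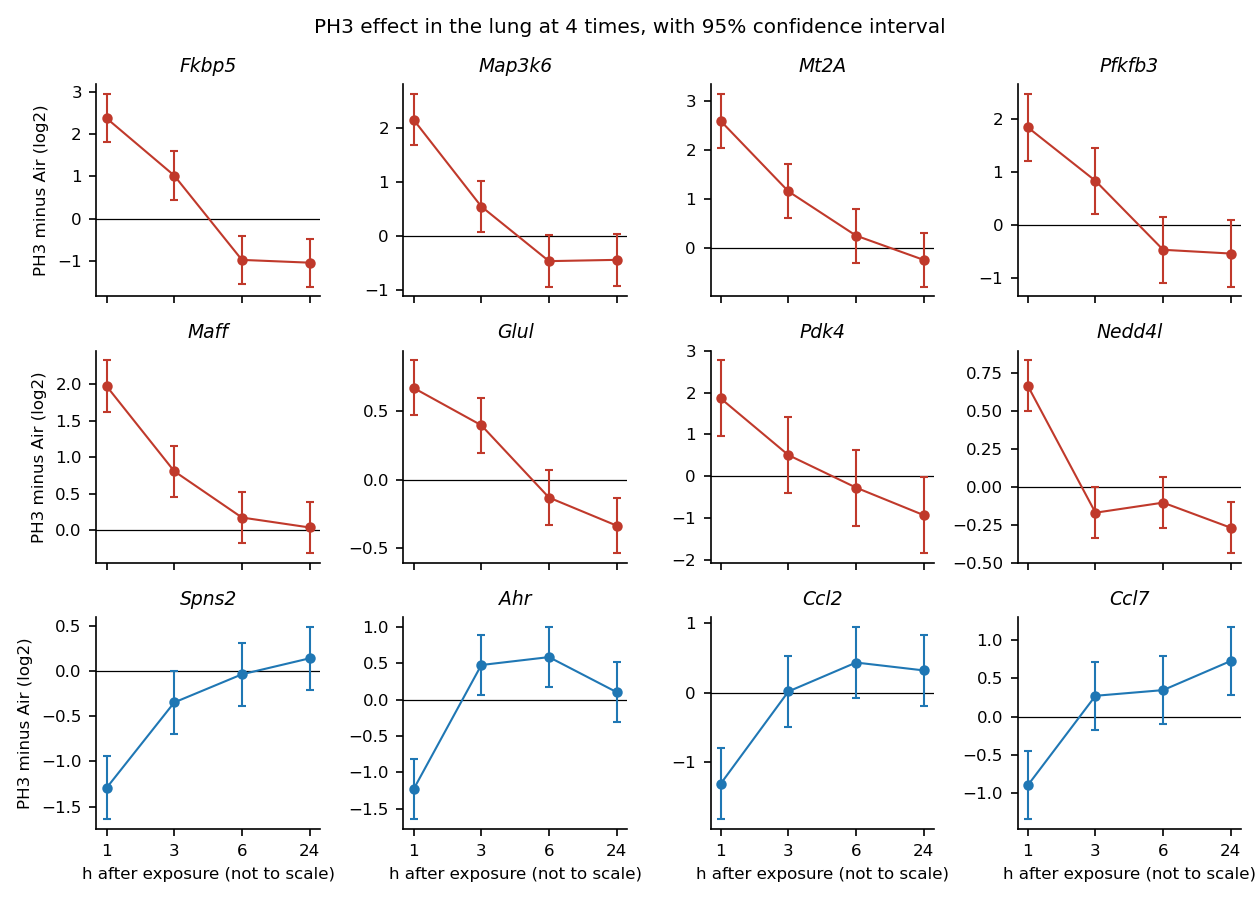
PH3 minus Air difference (y axis, log2) of 12 genes at 1, 3, 6 and 24 h (x axis), as points with 95% confidence intervals from limma; red genes were called higher and blue genes lower at 1 h. *Fkbp5* passes from 2.38 to −0.98 and −1.04, and *Maff*, *Mt2A* and *Spns2* lie near 0 at 6 and 24 h.

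The gene nearest to a call at 6 h was *Eno2*, the enolase isoform of neurons and neuroendocrine cells, which takes part in glycolysis and is also a target of hypoxia-inducible factor. It read 5.27, 5.02, 5.30 and 5.11 in PH3 and 4.34, 4.34, 4.55 and 4.09 in Air, without overlap. Its probe set was dim, with a mean of 4.62 over the lung arrays, whose medians were 5.26 or higher. The difference was 0.84 ± 0.142 or 1.79-fold (limma's adjusted p = 0.0722, n = 4 per group), and at 24 h it was 0.01 ± 0.142. The change between the times, −0.84, did not pass (adjusted p = 0.773), and that from 1 h to 6 h did (1.03, adjusted p = 0.00416). With the 3′ index as a covariate the 6 h difference was called (0.89, adjusted p = 0.0344), as it was without the 24 h PH3 array of Rat333, which enters the 6 h test only through the shared spread (adjusted p = 0.0387). It was not called under the other alternatives that kept its probe set, where the difference ran down to 0.65 and the adjusted p up to 0.331. The 150 bases before its start, on chr4:159267221-159267370 (GRCr8, minus strand, from RefSeq), are shown because the gene led the comparison; capitals mark the 5-base core of the hypoxia response element, ACGTG, whose first base is 139 bases before the start.

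Eno2: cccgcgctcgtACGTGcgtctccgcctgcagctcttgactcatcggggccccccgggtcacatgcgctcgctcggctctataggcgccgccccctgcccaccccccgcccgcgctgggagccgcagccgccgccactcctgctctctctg

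That core, read on both strands, is in the same window of 11.2% of 27457 RefSeq promoters and of 9 of the 26 promoters found for the glycolysis and hypoxia list. In that list, *Eno2* included, 18 of 29 were above Air at 6 h with a median of 0.04, and 3 were higher at an unadjusted p under 0.05, against 2.83% of all genes. *Slc2a1*, the basal glucose transporter, was 1 of these, at 0.27 ± 0.133 (adjusted p = 0.983), and *Ldha*, lactate dehydrogenase, stood at −0.07. The mean level of the 29 genes lay between 7.38 and 7.40 in PH3 and between 7.29 and 7.35 in Air at 6 h. These narrow ranges did not overlap; at 24 h they did, and 12 of 29 were above Air.

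Smooth muscle genes lay above Air at 6 h. Of 10 markers 9 were above Air, with a median of 0.26, and 4 were higher at an unadjusted p under 0.05, against 2.83% of all genes. Their mean level was 8.23, 8.37, 8.13 and 8.06 in PH3 and 7.96, 7.94, 7.97 and 7.79 in Air, without overlap. *Acta2*, the actin of smooth muscle and myofibroblasts, read 8.77, 10.00, 8.11 and 8.15 in PH3 against 8.20, 7.88, 7.86 and 7.61 (0.87 ± 0.265, adjusted p = 0.977), so that 1 PH3 array stood above the rest and the groups touched; without it, the array of Rat381, the difference was 0.45. *Tagln*, transgelin, read 11.78, 11.68, 11.87 and 11.64 against 11.38, 11.58, 11.62 and 11.54 (0.21 ± 0.0991, adjusted p = 0.983), without overlap. *Cnn1*, calponin, stood at 0.45 and *Myh11*, the smooth muscle myosin, at 0.30. The filamin *Flnc*, which is no member of the list and is not read here as a smooth muscle marker, stood at 0.77 ± 0.243 (adjusted p = 0.983). A second, dimmer probe set of *Flnc* gave 0.34, with groups that overlapped. In the 24 h lungs 2 of the 10 were above Air with a median of −0.10, and 8 of 10 with a median of 0.04 without the Air array of Rat340, whose mean level, 8.51, was the highest. With Air arrays of all times as controls the 6 h median was 0.11. Markers of cardiac muscle and of skeletal muscle and brown fat also leaned above Air at 6 h, with medians of 0.41 and 0.69. The groups overlapped in the mean level of both lists. A tissue piece with more muscular wall and more RNA per muscle cell cannot be told apart in bulk RNA, here or for the cell markers below.

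Some basement membrane genes lay above Air at 6 h and below it at 24 h. *Col4a2*, a chain of collagen IV, read 10.65, 10.87, 10.40 and 10.48 in PH3 at 6 h and 10.41, 9.86, 9.86 and 10.11 in Air (0.54 ± 0.145, adjusted p = 0.857). The 24 h arrays read 9.81, 9.59, 9.14 and 9.44 against 9.80, 10.05, 9.88 and 9.91 (−0.42 ± 0.145, adjusted p = 0.736). The change between the times, −0.96, had an unadjusted p of 7e-05 and an adjusted p of 0.572. *Lamb1*, a laminin chain, stood at 0.29 ± 0.0854 at 6 h without overlap (adjusted p = 0.923) and at −0.13 at 24 h, and *Hspg2*, perlecan, at 0.52 and −0.43. Over the 21 fibroblast and matrix genes the medians were 0.06 and −0.12, with 13 and 6 above Air. The fibrillar collagen *Col1a1* stood at 0.20 and −0.29 and *Col3a1* at −0.07 and 0.08.

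Sterol genes lay slightly above Air at 6 h. Of 15 genes of cholesterol synthesis 11 were above Air, with a median of 0.19. At an unadjusted p under 0.05, 4 were higher (*Idi1*, *Insig1*, *Sqle* and *Fdft1*), against 2.83% of all genes. *Sqle*, squalene epoxidase, read 8.14, 8.30, 7.88 and 7.62 in PH3 and 7.42, 7.82, 7.45 and 7.70 in Air (0.39 ± 0.163, adjusted p = 0.983), and the groups overlapped. *Insig1*, the sterol sensor that holds back the pathway, stood at 0.31 ± 0.128. At 24 h 4 of 15 were above Air and the median was −0.11. *Abca1*, which exports cholesterol from cells, read 10.11, 9.44, 9.40 and 9.68 in PH3 at 6 h and 8.06, 8.02, 9.21 and 9.21 in Air. These groups did not overlap, and the difference was 1.03 ± 0.343 (adjusted p = 0.983). A second probe set of *Abca1* gave 1.13, and the 2 others gave 0.25 and 0.06.

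Among the genes with the lowest p at 6 h, *Madd*, an adaptor of death receptors, stood at 0.41 ± 0.0807 (adjusted p = 0.204) and *Gfra2*, the neurturin receptor, at −0.51 ± 0.118 (adjusted p = 0.616), each without overlap. *Gfra2* read 6.99, 7.19, 7.27 and 6.94 in PH3 and 7.44, 7.45, 7.83 and 7.72 in Air, and was called with Air arrays of all times as controls (−0.67, adjusted p = 0.0031). *Ehd3*, an endocytic ATPase, read 7.35, 7.33, 7.38 and 7.52 in PH3 and 8.60, 8.71, 8.19 and 7.61 in Air (−0.88 ± 0.222, adjusted p = 0.857; called in the fit of all tissues with the rat as a block, adjusted p = 0.00987). *Cyp26b1*, which breaks down retinoic acid, stood at −1.32 ± 0.392 (adjusted p = 0.948), with PH3 arrays from 6.56 to 7.43 and Air arrays from 7.72 to 8.91. *Cpt1a*, the gate of fat into mitochondria, stood at −0.36 ± 0.119 without overlap (adjusted p = 0.983), and *Fst*, the activin antagonist follistatin, at 0.56 ± 0.183, also without overlap (adjusted p = 0.983). *Col5a3* stood at 0.96 ± 0.333 (adjusted p = 0.983), with PH3 arrays from 5.11 to 5.85 and Air arrays from 4.39 to 4.73. Second, dimmer probe sets gave −0.74 for *Cyp26b1* and −0.37 for *Gfra2*, with groups that overlapped. Those of *Ehd3* and *Cpt1a* gave −0.95 and −0.51, without overlap.

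**Figure D3:**
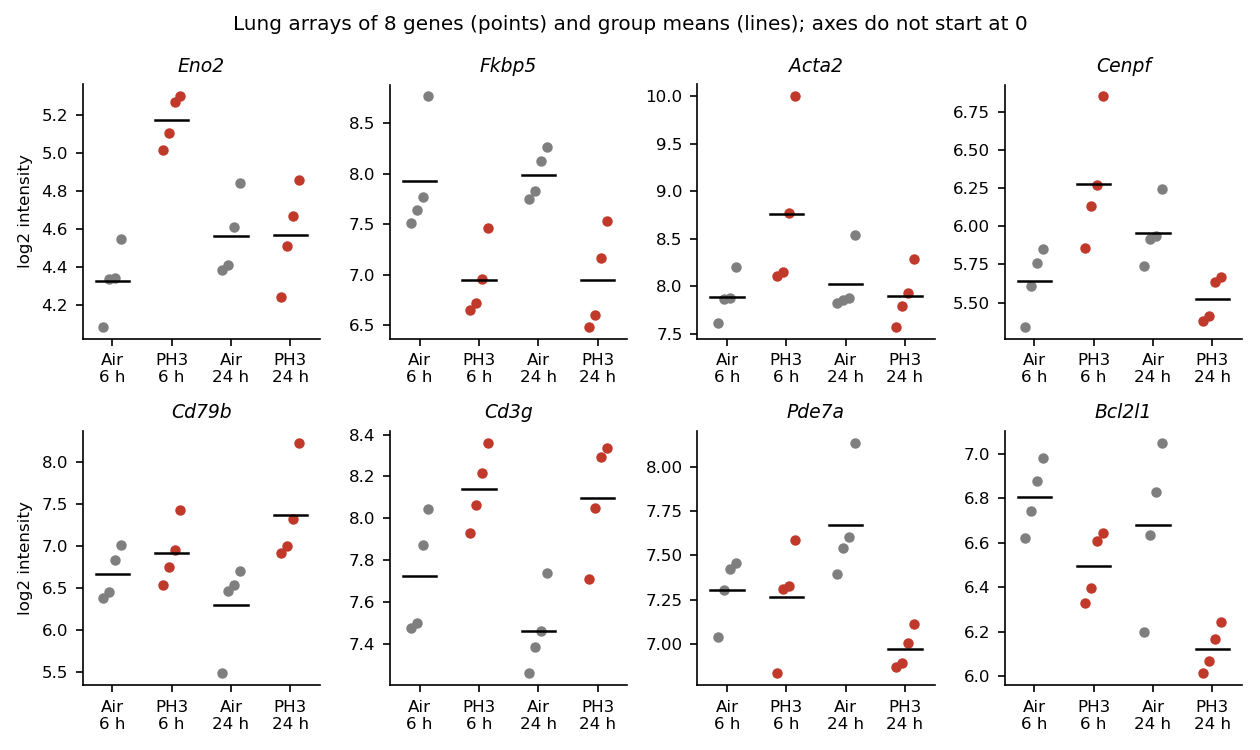
Log2 intensity (y axis, not starting at 0) of 8 genes on each lung array of the Air (grey) and PH3 (red) groups at 6 and 24 h; points are arrays, ordered by level, and lines are group means. *Eno2* separates at 6 h only, *Fkbp5* at both times, *Cenpf* in opposite directions, and *Cd79b* and *Pde7a* at 24 h only.

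Cell division genes stood on opposite sides of Air at the 2 times. At 6 h 22 of 27 were above Air with a median of 0.24, and at 24 h 1 of 27 with a median of −0.28. At an unadjusted p under 0.05, 2 were higher at 6 h (against 2.83% of all genes) and 5 lower at 24 h (against 2.6%): *Cdk1*, *Mki67*, *Nusap1*, *Tyms* and *Cenpf*. *Cenpf*, a kinetochore protein, read 6.27, 5.86, 6.13 and 6.85 in PH3 and 5.34, 5.61, 5.76 and 5.85 in Air at 6 h (0.64 ± 0.198, adjusted p = 0.983). The 24 h arrays read 5.67, 5.41, 5.38 and 5.63 against 6.24, 5.74, 5.93 and 5.91 (−0.43 ± 0.198, adjusted p = 0.811). It was the gene of the list whose groups did not overlap at either time, above Air first and below it later.

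*Mki67*, the proliferation marker Ki-67, stood at 0.45 ± 0.222 at 6 h and at −0.55 ± 0.222 at 24 h (adjusted p = 0.983 and 0.783). *Cdk1*, the kinase that drives entry into mitosis, read 6.59, 6.63, 6.21 and 6.00 in PH3 at 24 h and 7.06, 6.90, 6.75 and 7.16 in Air, without overlap (−0.61 ± 0.268, adjusted p = 0.811). *Tyms*, which makes thymidylate for DNA synthesis, stood at −0.48 ± 0.156 at 24 h (adjusted p = 0.664), and *Timeless*, a replication fork protein outside the list, at −0.66 ± 0.189 (adjusted p = 0.653). *Aurkb*, the kinase of the chromosomal passenger complex, had the largest difference at 6 h, 1.32 ± 0.577, but its PH3 arrays ran from 5.84 to 8.72 and its Air arrays from 5.64 to 7.56. The DNA-licensing genes *Mcm2*, *Mcm3*, *Mcm5* and *Mcm6* stood between −0.19 and −0.03 at 6 h.

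The change from 6 h to 24 h was negative in 25 of the 27 genes with a median of −0.52, and 7 were lower at an unadjusted p under 0.05, against 2.51% of all genes; for *Cenpf* it was −1.07 (unadjusted p = 0.0007, adjusted p = 0.857). The mean level of the 27 genes was 6.12, 5.89, 6.26 and 6.83 in PH3 and 6.01, 5.86, 6.06 and 6.25 in Air at 6 h. The 24 h levels were 5.80, 5.86, 5.52 and 5.59 in PH3 and 6.11, 5.83, 5.96 and 5.98 in Air. The 6 h side rested on the PH3 array of Rat391, without which 14 of 27 were above Air with a median of 0.0011. Leaving out any 1 array at 24 h kept the median between −0.32 and −0.21.

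Many genes of cell division are known to share short promoter elements, the CCAAT box bound by NF-Y and the cell cycle genes homology region, here searched as TTTGAA. The 150 bases before the start are shown for 3 members with groups apart or a low p, at chr1:199952594-199952743 (*Mki67*, minus strand), chr13:103760887-103761036 (*Cenpf*, minus strand) and chr20:19265143-19265292 (*Cdk1*, plus strand), from RefSeq on GRCr8. Capitals mark both elements on either strand, and in *Mki67* a copy of each shares bases with the other. A match is a description of the letters.

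Mki67: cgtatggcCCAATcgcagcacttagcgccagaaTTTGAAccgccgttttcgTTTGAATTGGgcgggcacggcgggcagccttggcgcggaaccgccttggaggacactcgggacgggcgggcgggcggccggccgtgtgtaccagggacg
Cenpf: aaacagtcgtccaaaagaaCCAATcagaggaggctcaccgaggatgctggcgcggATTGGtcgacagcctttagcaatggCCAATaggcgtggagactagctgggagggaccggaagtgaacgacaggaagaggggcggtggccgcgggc
Cdk1: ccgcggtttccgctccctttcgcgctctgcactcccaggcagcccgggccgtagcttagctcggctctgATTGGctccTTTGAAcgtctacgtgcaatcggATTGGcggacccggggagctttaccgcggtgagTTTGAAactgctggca

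The window held a CCAAT box in 16 of the 23 promoters found for the list, 69.6%, against 23.7% of 27457 RefSeq promoters. It held TTTGAA in 7 of 23, 30.4%, against 9.12%. *Cenpf* has 3 CCAAT boxes and no TTTGAA in this window, while *Cdk1* and *Mki67* have both elements.

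At 24 h markers of lymphocytes stood above Air. All 17 T and NK cell markers on the array were above Air with a median of 0.30, and 7 were higher at an unadjusted p under 0.05, where 3.63% of all genes were and 52.1% of all genes were above Air. Their mean level was 6.89, 6.83, 6.66 and 6.86 in PH3 and 6.58, 6.62, 6.28 and 6.46 in Air, without overlap. *Cd3g*, a chain of the T cell receptor complex, read 8.05, 8.29, 7.71 and 8.33 in PH3 and 7.74, 7.46, 7.39 and 7.26 in Air, touching at 1 array (0.64 ± 0.178, adjusted p = 0.653). *Lck*, the kinase of T cell receptor signalling, stood at 0.46 ± 0.136 (adjusted p = 0.653), *Cd3d* at 0.67 ± 0.239 and *Cd3e* at 0.50 ± 0.17. The killer genes *Gzma*, *Gzmb* and *Prf1* stood at 0.06, 0.08 and 0.04, the lowest of the list. At 6 h 14 of 17 were above Air with a median of 0.23 and 4 at an unadjusted p under 0.05, against 2.83% of all genes, and the groups overlapped. At 3 h all 17 had been above Air with a median of 0.46 and 4 called, and at 1 h 7 of 17.

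The 10 B cell markers were also all above Air at 24 h, with a median of 0.26 and 2 at an unadjusted p under 0.05, against 3.63% of all genes. *Cd79b*, a chain of the B cell receptor, read 6.92, 7.01, 7.32 and 8.23 in PH3 and 6.71, 5.48, 6.54 and 6.46 in Air, without overlap (1.07 ± 0.327 or 2.1-fold, adjusted p = 0.653). *Ms4a1*, the surface protein CD20, read 6.86, 7.03, 7.13 and 7.95 against 7.03, 6.03, 6.40 and 6.55 (0.74 ± 0.29, adjusted p = 0.783). At 1 h 1 of the 10 had been above Air, with a median of −0.48. The other 8 markers stood, at 24 h, between 0.07 and 0.41. Of the 4 markers of thymus and lymph node on the array, 1 was above Air, with a median of −0.30. Whether lymphocyte number or lymphoid tissue in the piece moves with these values was not tested. Over the alternatives and left-out arrays, 14 to 17 T and NK markers and 7 to 10 B cell markers stood above Air, with medians from 0.28 to 0.43 and from 0.15 to 0.33. The lowest counts include the filter on dim probe sets, which leaves 14 T and NK and 7 B cell markers, all above Air, and for T and NK markers the fits without the Air array of Rat340 or Rat328, with 14 of 17.

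Several genes known from white cells were among those named at 24 h. The macrophage markers as a list leaned the other way, with 4 of 13 above Air at 24 h and a median of −0.14. At an unadjusted p under 0.05, 0 of them were higher and 1 lower at 24 h, against 2.6% of all genes lower. At 6 h 5 of 13 were above Air, with a median of −0.13. *Ncf1*, an organiser of the phagocyte NADPH oxidase, read 4.94, 5.41, 5.32 and 5.31 in PH3 and 4.53, 4.71, 4.37 and 4.65 in Air (0.68 ± 0.207, adjusted p = 0.653). These Air values were dim, below the array medians of 5.26 or higher. *Birc3*, an inhibitor of apoptosis in the NF-kappaB pathway, stood at 0.55 ± 0.157, *Rhoh*, a GTPase of blood cells, at 0.55 ± 0.19, and *Fgr*, a myeloid Src kinase, at 0.53 ± 0.169, each without overlap and with adjusted p from 0.653 to 0.738; *Birc3* also stood apart at 6 h, at 0.34. *Pik3cd*, the leukocyte PI3 kinase, stood at 0.48 ± 0.105 and *Sit1*, a lymphocyte adaptor, at 0.65 ± 0.16 (both adjusted p = 0.588), with groups that touched; with Air arrays of all times *Pik3cd* stood at 0.06. For *Pik3cd* the changes from 1 h passed (0.65 at 6 h, adjusted p = 0.0157, and 0.81 at 24 h, adjusted p = 0.00238), and the Air level at 24 h minus that at 6 h was −0.38, which did not pass. *Hmox1*, the haem oxygenase that NRF2 induces, read 7.90, 7.97, 7.71 and 8.39 in PH3 and 7.63, 7.70, 7.26 and 7.46 in Air, without overlap (0.49 ± 0.141, adjusted p = 0.653). Over the 19 NRF2 targets the medians were 0.04 and −0.02, and *Hmox1* was the 1 member with an unadjusted p under 0.05 at 24 h.

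Neutrophil markers changed side between the times, while their mean level in PH3 was 6.02 at both. In Air the mean level was 6.28 at 6 h and 5.83 at 24 h. Between these Air groups 7 of the 8 markers were lower at 24 h, with a median of −0.48. At 6 h 0 of 8 were above Air with a median of −0.24, and at 24 h 7 of 8 with a median of 0.09; at 3 h all 8 had been above Air with a median of 0.64 and 3 called. *S100a9*, a calcium-binding protein of neutrophils, stood at −0.37 ± 0.34 at 6 h and 0.49 ± 0.34 at 24 h, and *Mmp8*, neutrophil collagenase, at −0.56 ± 0.259 at 6 h, with groups that overlapped. Against Air arrays of all 4 times, all 8 stood above Air at 6 h with a median of 0.09. Of the 26 acute inflammation genes 17 were above Air at 6 h and 18 at 24 h, with medians of 0.06 at both. At an unadjusted p under 0.05, 0 were higher and 0 lower at 6 h. At 24 h 4 were higher, against 3.63% of all genes, and 1 lower, against 2.6%. The lower one, *Cxcl1*, a neutrophil chemokine, stood at −0.57 ± 0.197 at 24 h, where 1 Air array (8.07) lay above the others (7.07 to 7.16). Interferon response genes stood below Air in 22 of 24 at 6 h with a median of −0.22, but 0 had an unadjusted p under 0.05, and with Air arrays of all times 14 of 24 were below with a median of −0.02. The median was −0.11 without the PH3 array of Rat381 and −0.13 without the Air array of Rat388, and the mean level of the list ran from 7.29 to 7.83 in PH3 and from 7.52 to 8.22 in Air.

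The lowest p at 24 h belonged to *Pde7a*, a cAMP phosphodiesterase, with an adjusted p of 0.588. It read 6.87, 7.01, 7.11 and 6.89 in PH3 and 7.54, 8.14, 7.40 and 7.61 in Air, without overlap (−0.70 ± 0.151, 1.62-fold lower), and stood at −0.04 at 6 h. *Cyp4b1*, a lung cytochrome P450 of club cells, read 11.12, 11.27, 11.19 and 11.09 in PH3 and 11.47, 11.81, 11.50 and 11.54 in Air, also without overlap (−0.41 ± 0.0906, adjusted p = 0.588). Of the 8 club cell markers 5 were above Air at 24 h; *Muc5b*, an airway mucin, and *Aldh1a1*, a retinaldehyde dehydrogenase, also stood below it, at −0.61 and −0.08. *Fasn*, fatty acid synthase, read 9.86, 9.65, 9.46 and 9.67 in PH3 and 10.04, 10.50, 10.50 and 10.14 in Air (−0.63 ± 0.179, adjusted p = 0.653), and a second probe set gave −0.59. *Plod3*, a collagen lysyl hydroxylase, stood at 0.44 ± 0.102 and *Grk4*, a receptor kinase, at −0.39 ± 0.0927, both without overlap (adjusted p = 0.588). A second, dimmer probe set of *Grk4* gave 0.05, with groups that overlapped.

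Leaving out the Air array of Rat340 brought the 24 h calls from 0 to 3. *Sybu*, a kinesin linker in neurons, went from a 2-fold lower level (adjusted p = 0.588) to −1.35 (adjusted p = 0.00576), and *Bcl2l1*, which encodes the survival protein Bcl-xL, from −0.56 ± 0.136 to −0.72 (adjusted p = 0.0498); the other call was an unnamed probe set. *Bcl2l1* read 6.01, 6.24, 6.07 and 6.17 in PH3 and 6.64, 7.05, 6.20 and 6.83 in Air, where 6.20 is Rat340. A second probe set of *Bcl2l1* gave −0.67 at 6 h and −0.68 at 24 h, while the dimmest gave −0.05 and 0.10. The gene had been 0.71 above Air at 1 h.

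**Figure D4:**
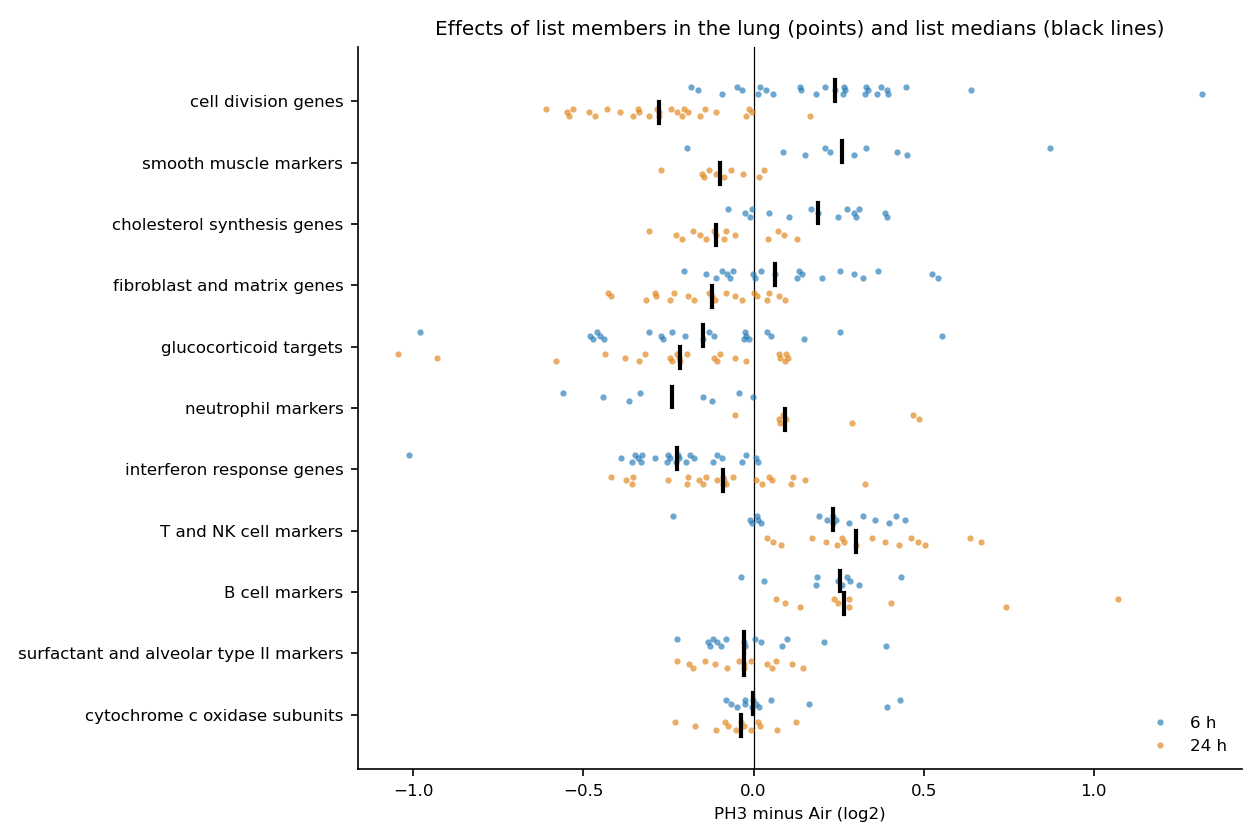
PH3 minus Air difference (x axis, log2) of the members of 11 lists at 6 h (blue points) and 24 h (orange points), with list medians as black lines. Cell division genes lie to the right of 0 at 6 h and to the left at 24 h, T, NK and B cell markers lie to the right at 24 h, and surfactant genes and cytochrome c oxidase subunits centre on 0.

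Markers of the alveolar cells and subunits of the enzyme that phosphine blocks had list medians within 0.07 of 0. Of 15 surfactant and type II markers 6 were above Air at 6 h and 5 at 24 h, with medians of −0.03 at both, and of 10 type I markers 6 and 3, with medians of 0.03 and −0.03. At 6 h 1 type II marker was lower at an unadjusted p under 0.05, against 2.34% of all genes, and 0 were higher. The 6 h groups did not overlap for 2 type II markers, both below Air, against 2.89% of all probe sets. Of the airway cells, 7 of 8 club cell markers were above Air at 6 h with a median of 0.28 and 0 at an unadjusted p under 0.05, and the 9 ciliated cell markers had medians of 0.09 and 0.06. The 18 endothelial markers had medians of 0.05 and −0.0020. *Sftpc* differed by −0.03 ± 0.0543 at both times, with 95% intervals from −0.14 to 0.09 and from −0.14 to 0.08. Among 13 subunits of cytochrome c oxidase 6 were above Air at 6 h and 4 at 24 h, with medians of −0.0026 and −0.04, and 0 at either time had an unadjusted p under 0.05. *Cox4i1*, the main form of subunit IV, stood at 0.05 ± 0.103 and 0.01 ± 0.103, with intervals from −0.16 to 0.26 and −0.20 to 0.22. The muscle forms *Cox6a2* and *Cox8b* spread with the muscle markers, so that their standard errors were 0.705 and 0.567. The 25 other subunits of the respiratory chain and ATP synthase had medians of −0.0018 at 6 h and −0.07 at 24 h; at 24 h 4 of 25 were above Air, against 21 of 25 without the Air array of Rat340 and 25 of 25 with Air arrays of all times.

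**Figure D5:**
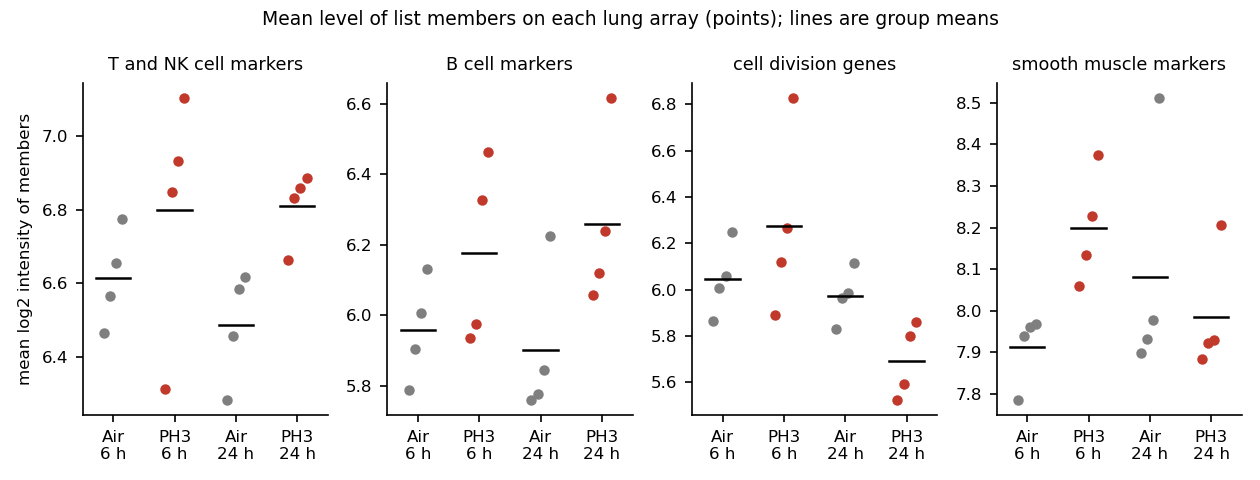
Mean log2 intensity of the members of 4 lists (y axis, not starting at 0) on each lung array of the Air (grey) and PH3 (red) groups at 6 and 24 h; points are arrays, ordered by level, and lines are group means. T and NK cell markers separate at 24 h and smooth muscle markers at 6 h, while 1 PH3 array at 6 h stands above the others for cell division genes (6.83).

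The effects at 24 h and 6 h did not differ by the test. For the difference between them limma called 0 probe sets, with 1604 at an unadjusted p under 0.05, 5.17% of those tested, and a smallest adjusted p of 0.323. Of the 1536 probe sets with an unadjusted p under 0.05 at 6 h, 151 also had one at 24 h, which is 9.83% of the 6 h set and 7.92% of the 24 h set, and 94 of the 151 had the same sign. The Air groups of the 2 times did not differ by the test either, with 0 calls and 1466 probe sets at an unadjusted p under 0.05, 4.72%.

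Clock genes varied within the controls. Of 16 clock genes, 2 were higher and 7 lower in Air at 24 h than in Air at 6 h at an unadjusted p under 0.05. *Dbp*, an output gene of the circadian clock, read 9.77, 9.81, 9.81 and 9.96 in Air at 6 h and 9.89, 5.86, 6.59 and 9.37 in Air at 24 h. *Npas2*, a clock activator, read 5.69, 5.35, 5.83 and 5.33 and then 6.06, 8.32, 7.75 and 6.42. The 24 h Air arrays that were low in *Dbp*, those of Rat335 and Rat340, were the ones high in *Npas2*. In the PH3 group at 24 h *Dbp* read 9.79, 9.86, 8.11 and 8.34 and *Npas2* 5.98, 5.86, 7.18 and 7.06, and the groups overlapped (1.10 ± 0.678 for *Dbp*, adjusted p = 0.868). The labels give no hour of day, and its part in these values was not tested.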

How the data were processed

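Total RNA of frozen lung was amplified and labelled with a 3′ in vitro transcription kit, per the labels' protocols. The authors deposited a log2 intensity for each probe set on each array. The submitters' processing notes name Partek and RMA. Their versions, and which arrays shared a normalization, are not given here by any label. RMA's quantile step forces arrays to 1 distribution, so a change in total RNA is not seen. Arrays give no counts, and the number of arrays limits the precision.

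The 97 control probe sets were left out of the 31139. In R 4.3.3 with limma 3.58.1 all 32 lung arrays entered 1 fit with 8 group means, so the groups share the spread; effects are PH3 minus Air ± SE, tests are two-sided, and the Benjamini-Hochberg adjustment covered 31042 probe sets, with a call at an adjusted p under 0.05. The code was tested on simulated data. Exact permutation tests and plots used Python 3.11.15, scipy 1.17.1 and matplotlib 3.10.9.

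Groups come from the labels. Each rat was in 1 exposure group, so rat numbers make no pairs across exposures; they tie tissues of 1 animal, and an alternative fit of the arrays of all 6 tissues took the rat as a block (consensus correlation 0.0168). Other alternatives were the groups compared alone, array medians subtracted, the brighter 50% of probe sets, the 3′ index as covariate, Air arrays of all times, a trended robust prior, and each array left out.

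The members and the 36 lists, with 551 of 638 entries on the array, were chosen with earlier results of these data known, and no list was given a test. Genes were named by a rule: at each time the 10 largest rises and falls among genes with groups apart (unadjusted p under 0.01), the 10 genes of lowest p, up to 2 members per list with p under 0.05, the 6 genes of lowest p for each difference, genes of the early response, and 2 bright markers per cell type. Other list members named beside a count were chosen after their values were seen. Gene names follow the platform annotation, with 18983 probe sets matched to GRCr8 by identifier. Promoter windows are the 150 bases before the start, 1 start per gene.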

Additional observations from a re-analysis of the deposited data

Results flagged for a closer look

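Of 236 groups of 4 arrays examined (the groups of the named genes and of the leading lists), 12 held an array whose gap to the nearest of the others exceeded Dixon's 95% critical value. Chance flags about 5% of such groups. At 6 h these were the Air array of Rat377 for *Col5a3* (4.734), for *Map3k6* (5.883) and for the mean level of glucocorticoid targets (8.19), and the Air array of Rat394 for smooth muscle markers (7.786). At 24 h the Air array of Rat328 stood apart for *Lck* (8.307) and *Nupr1* (7.64), that of Rat502 for *Cxcl1* (8.074) and that of Rat340 for smooth muscle markers (8.511). Among PH3 arrays at 24 h, Rat341 stood apart for *Pdk4* (8.49), smooth muscle markers (8.205) and cholesterol synthesis genes (7.513), and Rat333 for glucocorticoid targets (7.702).

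The PH3 effect differed between times, by limma's test of the difference, in 15 genes of a set chosen for this check. Most were genes of the early response, while *Glul*, *Nedd4l* and *Rapgef5* were named by other parts of the rule. The set left out other early genes, and also *Eno2* and *Pik3cd*. Most of its genes were named by values that enter the difference, so these p-values are descriptions. At 6 h minus 1 h the differences were 1.82 for *Ahr* (adjusted p = 0.000548), 1.75 for *Ccl2* (0.00607), 1.24 for *Ccl7* (0.0248), −3.35 for *Fkbp5* (3.52e-05), −0.803 for *Glul* (0.0014), −1.85 for *Il1r2* (0.00308) and −1.8 for *Maff* (0.000107). They were −2.61 for *Map3k6* (6.68e-05), −2.33 for *Mt2A* (0.000669), −0.771 for *Nedd4l* (0.000318), −2.31 for *Pfkfb3* (0.00319), −2.02 for *Rapgef5* (6.68e-05) and 1.25 for *Spns2* (0.00386). At 24 h minus 1 h they were 1.34 for *Ahr* (adjusted p = 0.00939), 1.63 for *Ccl2* (0.0101), 1.62 for *Ccl7* (0.00307), −3.42 for *Fkbp5* (2.46e-05), −1.64 for *Gal* (0.0105), −1.01 for *Glul* (0.000116) and −1.94 for *Maff* (5.2e-05). The remaining ones were −2.58 for *Map3k6* (5.2e-05), −2.82 for *Mt2A* (7.99e-05), −0.937 for *Nedd4l* (4.64e-05), −2.79 for *Pdk4* (0.0131), −2.38 for *Pfkfb3* (0.0021), −1.78 for *Rapgef5* (0.00018) and 1.43 for *Spns2* (0.000962).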

How the results depend on the processing

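The lists' medians, their counts and the counts of early probe sets were recomputed under alternatives added after the data were seen. At 6 h the count of called probe sets went from 0 to 1 with the 3′ index as covariate, to 2 with Air arrays of all times and to 9 with the rat as replicate block; at 24 h it ran from 0 to 3 over left-out arrays. The block brought the change from 6 h to 24 h from 0 to 1, the change from 1 h to 6 h from 675 to 195, that from 1 h to 24 h from 666 to 176, and Air at 24 h against 6 h from 0 to 4. That fit takes 1 spread for 6 tissues, and the cause was not tested. With Air arrays of all times the medians moved to 0.014 for glucocorticoid targets, 0.11 for smooth muscle markers, 0.0903 for neutrophil markers and 0.086 for clock genes at 6 h, and to 0.43 for T and NK cell markers and 0.048 for cholesterol synthesis genes at 24 h; the 3 h Air arrays in that control held 3′ indices from 0.343 to 0.521. Of the probe sets called higher at 1 h, those below Air at 6 h went from 67 to 105 in a fit of the compared groups alone and to 33 with the block (4.51%, against 0.538% of all probe sets there), and those below Air at 24 h from 88 to 36 with the block (4.92%, against 0.834%). Of those called lower, the ones above Air at 6 h went from 62 to 41 with array medians subtracted or Air arrays of all times and to 12 with the block (2.05%, against 0.59%), and at 24 h from 46 to 4 with the block (0.683%, against 0.512%). Cell division genes lower at 24 h (unadjusted p under 0.05) went from 5 to 12 in the compared groups alone or with Air arrays of all times, and to 1 with the block.

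Of 1366 gene values 1343 kept direction and side of the threshold, 6 passed it and 17 changed sign. With Air arrays of all times these were *Gadd45a* (0.011), *Mmp8* (0.019, from −0.56), *Pfkfb3* (0.14, from −0.47), *Ccl2* (−0.0049, from 0.43) and *Il1r2* (0.42, from −0.21) at 6 h, and *Ahr* (−0.18) and *Gal* (−0.057) at 24 h. *Spns2* at 6 h became 0.0055 with the 3′ index. Over left-out arrays *Spns2* at 6 h ran from −0.099 to 0.051, *Maff* at 24 h from −0.029 to 0.12, *Ahr* at 24 h from −0.046 to 0.27 and *Eno2* at 24 h from −0.087 to 0.12. Air arrays of all times also moved other named values by over 1.5 times with no change of sign. At 6 h these included *Ccl7* (0.01), *Col5a3* (0.62), *Insig1* (0.10), *Map3k6* (−0.28), *Acta2* (0.53), *Cenpf* (0.23), *Cnn1* (0.06), *Madd* (0.19), *Ehd3* (−0.45), *Cpt1a* (−0.09), *Rapgef5* (−0.31) and *Mki67* (0.28). At 24 h they included *Ccl2* (0.59), *Il1r2* (0.06), *Rapgef5* (−0.08), *Pde7a* (−0.42), *Fasn* (−0.39), *Cyp4b1* (−0.27), *Plod3* (0.21), *Ms4a1* (0.34), *Sybu* (−0.37), *Fgr* (0.35) and *Col4a2* (−0.70). Single arrays did so for *Ahr* at 6 h (0.39 without Rat391), *Mki67* at 6 h (0.24 without Rat391), *Pfkfb3* at 24 h (−0.32 without Rat502, −0.29 without Rat333), *Cxcl1* at 24 h (−0.33 without Rat502), *Cdkn1a* at 24 h (−0.34 without Rat335) and *Fgr* at 24 h (0.33 without Rat340). Among the medians they did so for T and NK cell markers at 6 h (0.10 without Rat387), B cell markers at 6 h (0.07 without Rat381) and 24 h (0.15 without Rat340), fibroblast genes at 24 h (−0.04 without Rat340), cholesterol genes at 24 h (−0.02 without Rat341) and neutrophil markers at 6 h (−0.14 without Rat381, −0.37 without Rat394).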
